A study of Mus musculus with 10 samples.

Results

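Hypoxia-inducible factor (HIF) is the transcription factor through which cells answer low oxygen, and 10 genes of its pathway were followed here in ASZ001 cells, a murine basal cell carcinoma (BCC) line that resists SMO inhibitors. The genes are Hif1a, the oxygen-regulated HIF subunit, and Egln1, Egln3, Ndufa4l2, Bnip3, Pdk1, Vegfa, Adm, Ankrd37 and Ddit4, all described as HIF targets in many cell types. They were read by gene symbol from the 17658 and 16719 named genes of 2 expression tables, and all 10 were found in both. Ndufa4l2 was selected on its fall with T-5224, and the other 9 were chosen with results of these contrasts known, so no p-value is given for them, and where their calls are counted the count is a description only.

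RNA-seq was made from 10 libraries of cells held for 24 h in 154CF medium at low serum (0.2%, from chelated FBS) with CaCl2 at 0.05 mM. In the first experiment 3 libraries received 10 µM SB431542, which blocks the TGFß receptor kinase ALK5, and 3 received DMSO. In the second experiment 2 libraries received 20 µM T-5224, an inhibitor of AP-1, and 2 received DMSO. Treated libraries were set against DMSO from the same table only, all in 1 cell line with no genetic change between groups. Values are RPKM, read counts scaled by transcript length and by library depth. Levels can be compared between genes only roughly, since those of genes whose copies can share reads, such as Gapdh, may be misstated. Low values in short genes gave about 35.8 to 48.9 M reads per library in the SB431542 table and 31.8 to 51.5 M reads in the T-5224 table. In the SB431542 table, DMSO replicate 1 differed most from the other libraries of its group. The keratinocyte markers Krt5 and Krt14 were at 4889 and 4076 RPKM in DMSO of that table, and Col1a1, Ptprc and Tie1, markers of fibroblasts, blood cells and endothelium, were at or near 0. Other markers of those cells were detected there, with Dcn at 2.13 RPKM, Cd68 at 8.43 RPKM and Pecam1 at 5.75 RPKM. The T-5224 table numbers its DMSO columns 1 and 2, as is done here, and the sample labels number the same libraries 4 and 5.

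In oxygenated cells the prolyl hydroxylases encoded by the Egln genes mark HIF-1α for destruction, and when oxygen is low the protein persists, pairs with the partner encoded by Arnt and binds a short DNA motif at its targets. HIF activity therefore depends largely on protein stability, which mRNA does not measure. Among the targets are the hydroxylase genes themselves, genes that lower the use of oxygen by mitochondria, and genes for secreted factors that act on blood vessels.

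The start-site promoters of the members that moved with T-5224 show where the motif lies. RefSeq promoters (GRCm38.p6) were found for 9 of the 10 genes, with 11 entries in all. The 250 bases before each start were searched on both strands for the HIF core, ACGTG or GCGTG, with overlapping matches counted as 1 run, and for the AP-1 site TGACTCA. At least 1 HIF core was present in 9 of 11 entries, against 38.6% of all 32851 promoter windows. Both cores contain CG, and the windows were not matched for base content or expression, so no excess of the motif is read from this. By gene, 9 of the 9 had a core in at least 1 entry, but this count includes Vegfa and is by gene, so the share by window cannot be set against it. Vegfa had it only in its second entry, which lies downstream of the first and within the gene. No core was found before the first start of Vegfa. The AP-1 site was present in 0 of 11 entries, against 4.5% of all windows. At that share, 0 in so few entries does not tell these promoters from others, and sites farther from a start were not searched. Shown are the 4 genes called lower with T-5224 that have an entry and Vegfa, which was called higher, as the first entry of each gene, with the motif in capitals.
Bnip3 (chr7:138909507-138909756, minus strand): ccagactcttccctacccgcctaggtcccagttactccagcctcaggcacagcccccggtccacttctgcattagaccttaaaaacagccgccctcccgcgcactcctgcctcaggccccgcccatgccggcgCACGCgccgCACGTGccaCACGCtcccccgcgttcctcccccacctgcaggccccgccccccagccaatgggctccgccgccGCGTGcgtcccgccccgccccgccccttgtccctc
Ankrd37 (chr8:45999851-46000100, minus strand): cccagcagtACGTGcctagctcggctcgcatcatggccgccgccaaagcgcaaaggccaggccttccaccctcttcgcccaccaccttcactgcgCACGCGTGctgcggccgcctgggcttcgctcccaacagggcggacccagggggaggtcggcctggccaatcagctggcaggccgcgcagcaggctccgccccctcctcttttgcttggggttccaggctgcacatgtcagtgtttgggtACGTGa
Egln1 (chr8:124949255-124949504, minus strand): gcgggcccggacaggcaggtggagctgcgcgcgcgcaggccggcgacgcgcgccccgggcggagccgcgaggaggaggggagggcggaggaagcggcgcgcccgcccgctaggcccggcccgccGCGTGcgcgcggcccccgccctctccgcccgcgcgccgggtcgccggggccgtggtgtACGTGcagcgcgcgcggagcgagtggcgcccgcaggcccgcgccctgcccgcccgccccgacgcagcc
Egln3 (chr12:54203875-54204124, minus strand): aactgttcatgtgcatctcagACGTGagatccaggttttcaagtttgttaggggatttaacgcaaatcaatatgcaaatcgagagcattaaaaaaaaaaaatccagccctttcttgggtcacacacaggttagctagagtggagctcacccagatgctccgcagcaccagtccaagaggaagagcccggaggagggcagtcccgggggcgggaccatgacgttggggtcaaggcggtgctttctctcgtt
Vegfa (chr17:46032378-46032627, minus strand): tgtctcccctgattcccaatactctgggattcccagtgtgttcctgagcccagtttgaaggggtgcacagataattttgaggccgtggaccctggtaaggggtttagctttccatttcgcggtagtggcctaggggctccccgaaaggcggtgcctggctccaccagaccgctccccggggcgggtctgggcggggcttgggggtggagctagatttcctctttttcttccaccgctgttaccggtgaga
Bnip3 held 4 separate runs, from 117 to 35 bases before the start, Ankrd37 held 3, Egln1 held 2 and Egln3 held 1, and the entry of Vegfa shown held 0. The second entry of Vegfa, within the gene, held 2 runs, and Ddit4, which was also higher with T-5224, held 2. A match describes the letters only.

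With T-5224, 5 of the 9 members that passed the expression minimum were called down and 1 was called up, where a call is a fold change over 2 with an adjusted p under 0.05, and 10.6% of the 10809 genes tested were called down and 10.4% up. Without a limit on the fold, 7 were lower and 2 higher, against 39.4% and 40.3% of genes tested. The members were chosen with this contrast known, so nothing is read from these counts. With 2 libraries a group, treated libraries all below or all above DMSO were common, at 44.5% and 45.1% of genes tested, so a lack of overlap is given below as a description. The median log2 fold change of the 9 was −1.60, against 0.003 over all genes tested.

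Ndufa4l2, whose product is a mitochondrial protein related to the Ndufa4 subunit, lies at chromosome 10, 126951995 to 126954208 (mm9), on the plus strand. With DMSO it was at 20.6 and 60.8 RPKM, and with T-5224 at 0.703 and 0.524 RPKM. The groups did not overlap, and the lower DMSO library was 29.3 times the highest T-5224 library. The log2 fold change was −5.02 ± 0.34 (SE, n = 2 and 2), and it was −4.25 without DMSO replicate 2 and −5.79 without DMSO replicate 1. The DMSO libraries differed 2.95-fold from each other, a gap that only 6 of 10809 genes reached in either direction, while the other 8 members tested differed by at most 0.16 on the log2 scale. Ndufa4l2 passed the minimum only through its DMSO libraries, since the T-5224 libraries held about 24.8 to 34.8 reads of it. In bulk RNA, a smaller number of cells that express a gene and less of its RNA per cell cannot be told apart.

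The plot of levels by library shows the spread of each gene.

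**Figure D1:**
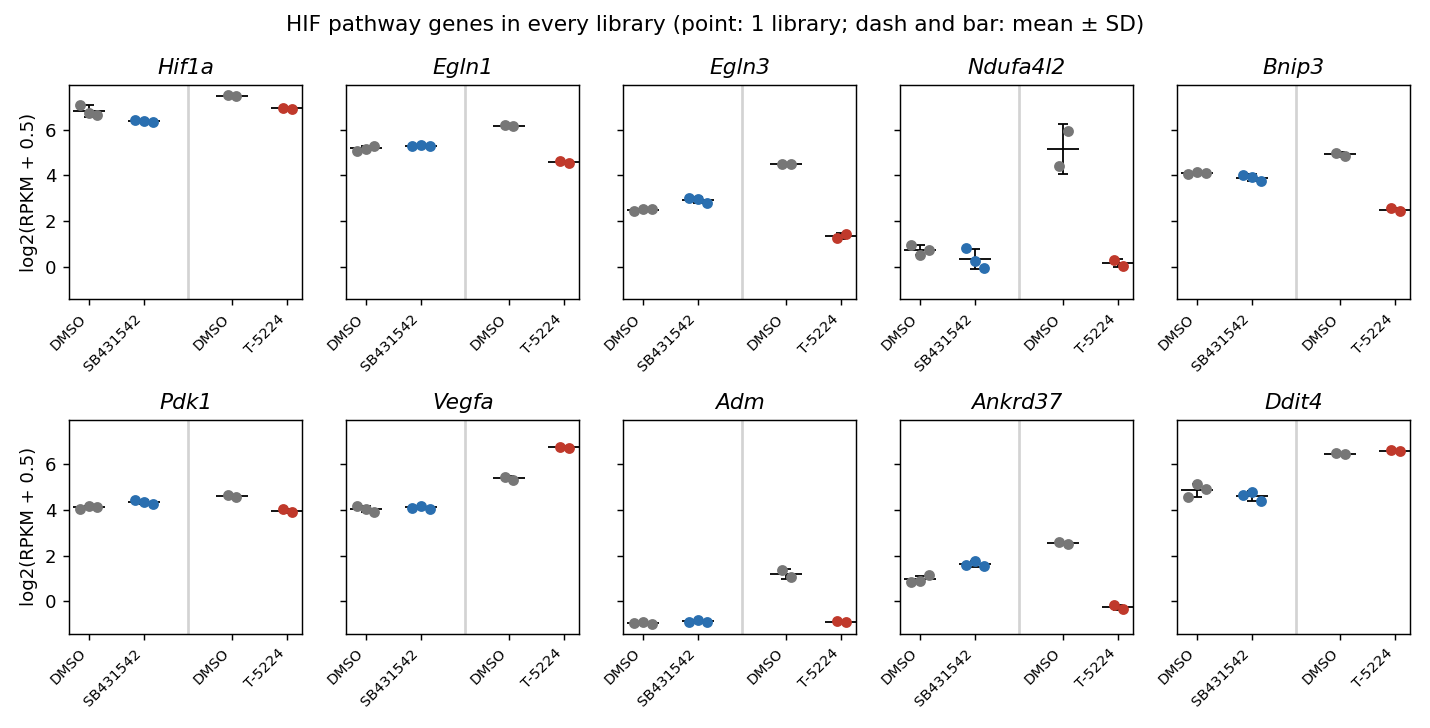
Each panel plots log2(RPKM + 0.5) for 1 gene, with each point 1 library, and the dash and bar give the mean ± SD of the group. The left and right parts of a panel are the SB431542 and T-5224 tables, and Ndufa4l2 is the gene whose DMSO points in the T-5224 table lie apart, at 20.6 and 60.8 RPKM.

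Both oxygen sensors were lower with T-5224. Egln3 was at 21.9 and 22.3 RPKM in DMSO and 1.87 and 2.17 RPKM with T-5224, a log2 fold change of −3.17 ± 0.09 (SE). Egln1 was at 73.0 and 71.2 RPKM in DMSO and 24.2 and 22.7 RPKM with T-5224, at −1.60 ± 0.06 (SE). In neither gene did the groups overlap. Hif1a itself was at 183.7 and 176.1 RPKM in DMSO and 124.9 and 118.4 RPKM with T-5224, a smaller difference of −0.56 ± 0.05 (SE).

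Of the mitochondrial members, Bnip3, a receptor for the removal of mitochondria by autophagy, was at 31.4 and 28.1 RPKM in DMSO and 5.39 and 4.93 RPKM with T-5224. Its log2 fold change was −2.42 ± 0.08 (SE). Pdk1, a kinase that keeps pyruvate out of mitochondrial oxidation, was at 24.6 and 23.2 RPKM in DMSO and 16.0 and 14.6 RPKM with T-5224. It was lower, at −0.63 ± 0.07 (SE), and the groups did not overlap. Ankrd37, a HIF target that encodes an ankyrin repeat protein, was at 5.52 and 5.23 RPKM in DMSO and 0.385 and 0.291 RPKM with T-5224, at −2.81 ± 0.12 (SE). The T-5224 values of Ankrd37 rest on about 13.3 to 18.4 reads, and it passed the minimum only through DMSO.

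The secreted members went in different directions. Vegfa, the main growth factor for blood vessels, was at 43.5 and 39.6 RPKM in DMSO and 109.4 and 105.0 RPKM with T-5224, so both treated libraries were above both DMSO libraries, at 1.36 ± 0.06 (SE). Adm, which encodes the vasodilator adrenomedullin, was at 2.08 and 1.58 RPKM in DMSO and 0.041 and 0.029 RPKM with T-5224. These are about 85.5 to 91.5 reads and 2.0 to 2.9 reads, and Adm was under the minimum and has no fold change. Ddit4, an inhibitor of mTOR signaling that also responds to the integrated stress response, was at 89.0 and 87.6 RPKM in DMSO and 98.5 and 96.1 RPKM with T-5224, at 0.14 ± 0.05 (SE). Thus Vegfa and Ddit4 were the 2 members higher with T-5224, though the value of Ddit4 dropped to 0.054 under quantile normalization.

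**Figure D2:**
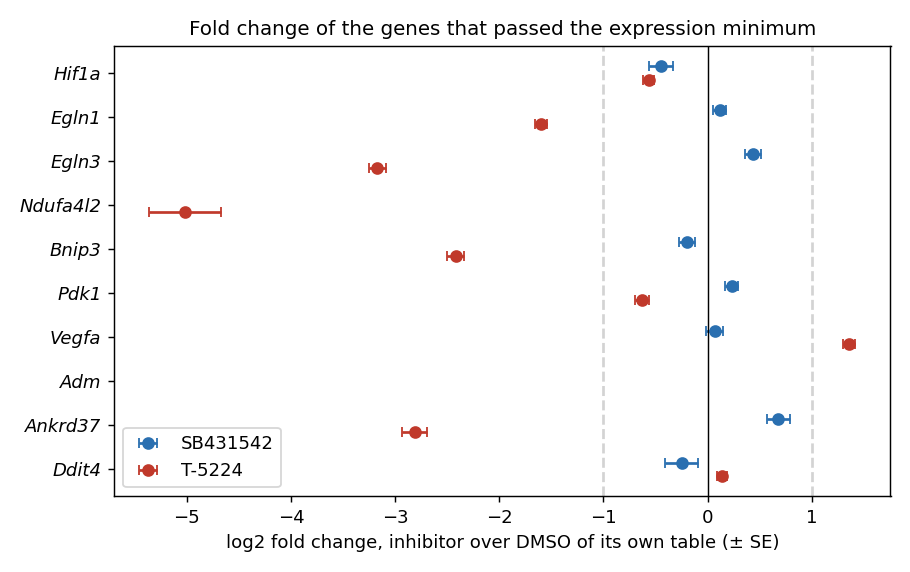
Log2 fold change of each member, inhibitor over DMSO of the same table, with bars of 1 SE and dashed lines at 2-fold. Adm has no point, and neither has Ndufa4l2 with SB431542, because those means were under 1 RPKM; with T-5224 Ndufa4l2 lies at −5.02 and Vegfa at 1.36.

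All 6 genes of the integrated stress response list were called up with T-5224, against 10.4% of genes tested, at log2 fold changes of 1.19 to 6.15. Trib3 led, at 7.14 ± 1.18 RPKM in DMSO and 539 ± 11.6 RPKM with T-5224 (SD, n = 2). With SB431542 none passed 2-fold, and 2 of 6 were higher with no limit on the fold, against 10.2% of genes tested. The keratinocyte markers moved as well. With T-5224, 6 of 7 were lower, against 39.4% of genes tested, and 4 of 7 were called down, against 10.6%. Krt5 was at −3.35 and Krt15 at −4.80 on the log2 scale. Both lists were chosen with earlier results of these data known, so their counts are a description. The part of either list in the members' values was not tested. Of 15 fibroblast, immune and endothelial markers 3 passed the minimum, Dcn at 1.89 RPKM in DMSO and 2.55 RPKM with T-5224, Cd68 at 17.6 and 33.0 RPKM, and Pecam1 at 11.3 and 4.39 RPKM. The defining markers Cdh5, Ptprc and Col1a1 were near 0 in both groups, at means of at most 0.0135 RPKM.

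With SB431542, no member of the 8 tested was called down or up, since no fold change passed 2, and 0.581% of the 10842 genes tested were called down and 0.231% up. With no limit on the fold, Hif1a was lower and Egln3, Pdk1 and Ankrd37 were higher, against 10.0% of genes lower and 10.2% higher. The median log2 fold change of the 8 was 0.09, against 0.008 over all genes tested. Nothing is read from these counts either, for the same reason. Treated libraries were all below DMSO in 21.3% of genes tested and all above in 23.9%.

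Hif1a was at 136.2, 106.8 and 98.4 RPKM in DMSO and 85.9, 82.8 and 79.6 RPKM with SB431542, at −0.44 ± 0.11 (SE, n = 3 and 3). Its highest value was that of DMSO replicate 1, and without that library the log2 fold change was −0.31. Egln3 was at 4.93, 5.21 and 5.17 RPKM in DMSO and 7.58, 7.32 and 6.36 RPKM with SB431542, at 0.43 ± 0.08 (SE). All treated libraries were above all DMSO libraries. Ankrd37 was at 1.31, 1.33 and 1.72 RPKM in DMSO and 2.55, 2.89 and 2.41 RPKM with SB431542, at 0.68 ± 0.11 (SE), with no overlap. Pdk1 was at 16.1, 17.4 and 17.1 RPKM in DMSO and 20.9, 20.1 and 18.8 RPKM with SB431542, at 0.23 ± 0.06 (SE). Again the groups did not overlap.

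The other members that were tested passed in neither direction with SB431542. Bnip3 was at 16.4, 17.0 and 16.4 RPKM in DMSO and 15.8, 14.8 and 12.8 RPKM with SB431542. Every treated library of Bnip3 was below DMSO, at −0.20 ± 0.08 (SE). Egln1 ranged from 33.3 to 38.7 RPKM in DMSO and from 38.0 to 39.6 RPKM with SB431542, at 0.12 ± 0.06 (SE). Vegfa ranged from 14.5 to 17.7 RPKM and from 16.2 to 17.8 RPKM, and Ddit4 from 23.0 to 34.4 RPKM and from 20.3 to 27.2 RPKM. In these 3 genes the groups overlapped. Ndufa4l2 was at 1.43, 0.909 and 1.13 RPKM in DMSO and 1.26, 0.672 and 0.461 RPKM with SB431542, again with overlap. Its ratio of group means was 0.69, and it was not tested, as its mean was under the minimum. Adm lay between 0 and 0.029 RPKM in DMSO and between 0.029 and 0.069 RPKM with SB431542, and was not tested either.

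The same 10 genes had higher DMSO means in the T-5224 table than in the SB431542 table. The tables were normalized separately and made from separate libraries, so this is a description. Ndufa4l2 had a DMSO mean of 1.16 ± 0.262 RPKM (SD, n = 3) in the SB431542 table and 40.7 ± 28.4 RPKM (SD, n = 2) in the T-5224 table, a ratio of 35.2. The ratios were 4.34 for Egln3, 3.70 for Ankrd37, 3.05 for Ddit4, 2.58 for Vegfa, 2.01 for Egln1 and 1.42 to 1.79 for Pdk1, Hif1a and Bnip3. Adm was near 0 in one table and at 1.58 to 2.08 RPKM in the other. Of all 10462 genes tested in both tables, 4.36% were more than 2-fold higher in DMSO of the T-5224 table, and 9.07% were more than 2-fold lower. Of 68 other HIF pathway genes 14 were higher and 7 lower by that measure.

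Some genes of the same pathway, chosen after their values were seen, differed in the opposite direction. Gapdh, a glycolytic enzyme whose processed pseudogenes can share its reads, was at 2281 RPKM in DMSO of the SB431542 table and 10.6 RPKM in DMSO of the T-5224 table. Pgk1 was at 304 and 28.1 RPKM, Pgam1 at 485 and 62.8 RPKM and Eno1 at 413 and 97.7 RPKM. Tfrc, Flt1 and Elob, which are not glycolytic, were lower too, by 2.26, 1.51 and 1.30 on the log2 scale. Other genes of glucose uptake and glycolysis were higher, with Slc2a1 at 2.19, Aldoc at 1.61 and Aldoa at 1.15. The part of shared reads in these values and in the members' ratios was not tested, and differences in culture cannot be told apart from differences in processing.

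**Figure D3:**
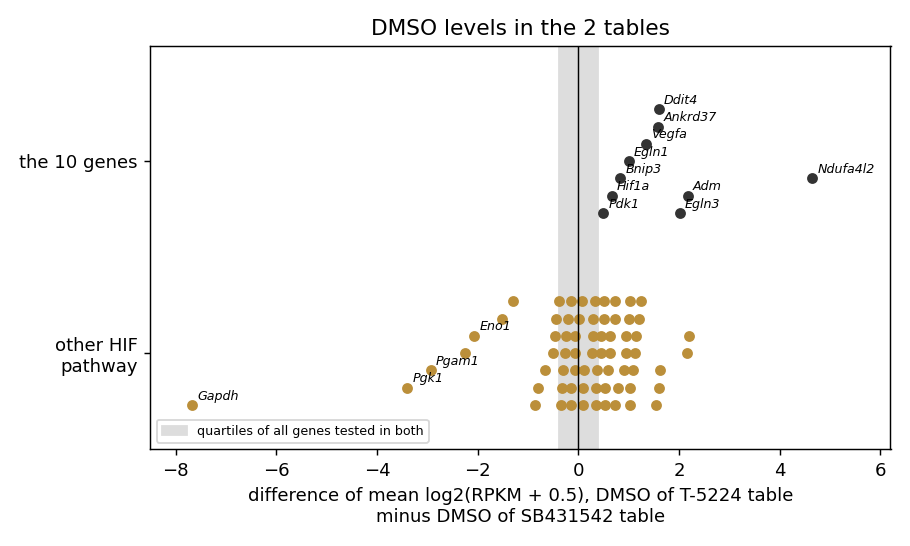
Each point is the difference of log2(mean RPKM + 0.5) for 1 gene, DMSO of the T-5224 table minus DMSO of the SB431542 table. The log is taken of the group mean, and the grey band spans the quartiles of all 10462 genes tested in both. All 10 members lie to the right of the band, Ndufa4l2 farthest, while Gapdh, Pgk1, Pgam1 and Eno1 lie to the left.

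To place the members among their pathway, 88 other HIF pathway genes in 6 roles were tested, none of them a member. With T-5224, 70 passed the minimum. Of these, 17 (24.3%) were called down and 7 (10.0%) up, against 10.6% and 10.4% of all genes tested. With no limit on the fold, 41 (58.6%) were lower and 18 (25.7%) higher, against 39.4% and 40.3% of all genes tested, and 11 passed in neither direction. The counts by role below stand against the same shares and rest on few genes each. The median log2 fold change was −0.33, against 0.003 over all genes. The counts called down and lower without a limit were higher than the background share, and the counts up and higher were not. Like the members, this list was chosen with earlier results of these data known. Its counts are therefore a description, and its p-values are not an independent test. The same holds for its counts with SB431542 and for the relatives of the members below. Calls are by limma's test with Benjamini-Hochberg adjustment over all genes tested.

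Among the HIF subunits and oxygen sensing genes, Epas1, which encodes HIF-2α, fell from 23.0 ± 1.99 to 2.30 ± 0.161 RPKM (SD, n = 2), which is −3.07 ± 0.09 on the log2 scale (SE; limma adjusted p = 7.37e-11). Cited2, a brake on HIF coactivators, fell by 1.31 on the log2 scale, and Hif1an, the asparagine hydroxylase that curbs HIF activity, by 0.77. Siah2, a ubiquitin ligase that acts on the prolyl hydroxylases, rose by 2.38. Vhl, the ligase component that takes HIF-α to destruction, was lower at −0.52, and Arnt, the shared partner, was at 20.4 and 20.5 RPKM, with a log2 fold change of 0.01 and an adjusted p of 0.90 by limma. In this role 7 of 14 genes were lower and 3 higher, against 39.4% and 40.3% of all genes tested.

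Glucose uptake and glycolysis had 14 of 17 genes lower and 3 higher with T-5224, and 4 were called down. Ldha, which makes lactate from pyruvate, fell from 861 ± 74.6 to 283 ± 3.06 RPKM (SD, n = 2), at −1.60 ± 0.06 (SE; limma adjusted p = 8.31e-10). The glucose transporter Slc2a1 fell by 1.51, Gpi1 by 1.34 and Pfkl by 1.05 on the log2 scale. The 3 higher genes included Hk2, a hexokinase, at 0.82. For Gapdh, Pgk1 and Eno1, whose copies can share reads, the fall of 0.28 to 0.72 is uncertain. The same holds for Pgam1, with a fall of 0.63. In DMSO these genes were far lower in this table than in the SB431542 table, and they are among the 14 lower genes.

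Mitochondria and lipid storage was the role with the largest share of genes called down, 5 of 9 (55.6%), and 8 of 9 were lower. Fam162a, a HIF-responsive mitochondrial protein, fell by 1.78, Bnip3l, the close relative of Bnip3, by 1.29, and Higd1a by 1.25. Lonp1, a mitochondrial protease, was the 1 gene that rose, from 50.7 ± 0.131 to 199 ± 6.91 RPKM (SD, n = 2), at 1.96 ± 0.05 on the log2 scale (SE; limma adjusted p = 4.05e-11).

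The other roles were divided. Among secreted and surface signals 4 of 10 were lower and 4 higher, near the shares over all genes. Stc2, a secreted glycoprotein, rose from 0.127 ± 0.081 to 9.35 ± 0.022 RPKM (SD, n = 2), and passed the minimum only through its T-5224 libraries. Cxcl12, a chemokine, fell to 0.058 RPKM from 2.36 RPKM, and passed only through DMSO. Pdgfb, a growth factor for mesenchymal cells, fell by 1.89, and Angptl4 rose by 1.02 on the log2 scale, close to the 2-fold limit and from 0.50 RPKM, so that it passed the minimum only through T-5224. Among pH, matrix, redox and iron genes 3 of 7 were called up and none down, led by the heme oxygenase Hmox1, at 4.51 ± 0.06 (SE; limma adjusted p = 3.94e-13), and the transferrin receptor Tfrc, at 2.36, with Ero1l at 1.13. P4ha2, a collagen prolyl hydroxylase, fell by 0.73 there. In the role of chromatin, transcription and other targets 4 of 13 were called down and none up. These were Ccng2, at −2.87, Narf, at −2.32, Kdm4b, a histone demethylase, at −1.46, and Vldlr, at −1.12.

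**Figure D4:**
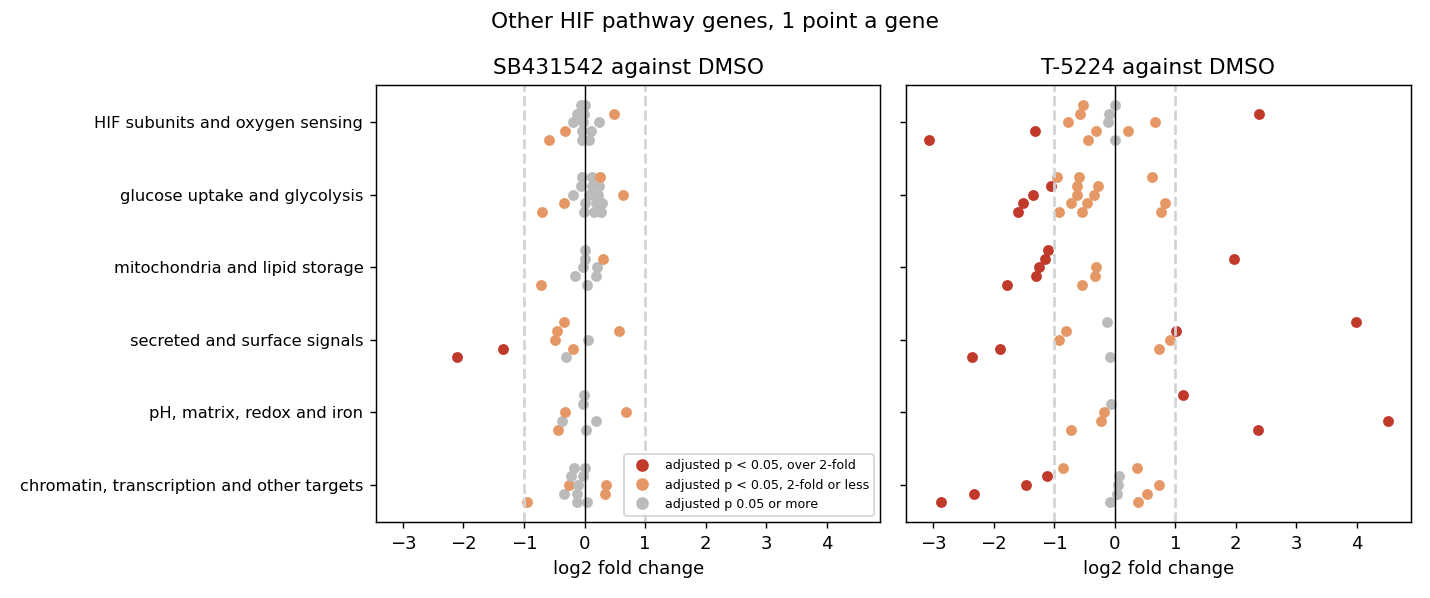
Log2 fold change of each other HIF pathway gene that passed the minimum, by role, for SB431542 (left) and T-5224 (right), with dashed lines at 2-fold. Red points are called, orange points pass the adjusted p but not 2-fold, and grey points pass neither; with T-5224 the mitochondrial and glycolytic genes lie mostly to the left of 0.

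With SB431542, 71 other HIF pathway genes were tested, and 2 were called down and 0 up, against 0.581% and 0.231% of all genes. Pdgfb was called down, with a fall of 1.35 on the log2 scale. At an unadjusted p under 0.05 with the same 2-fold limit, 0 were called up as well. With no limit on the fold, 15 (21.1%) were lower and 8 (11.3%) higher, against 10.0% and 10.2% of all genes, and the median was −0.02. The number lower was 20 without DMSO replicate 1 and 10 without any 1 of the other libraries. The number higher was 17 without DMSO replicate 1 and 3 to 4 without any 1 of the SB431542 libraries, so both numbers depend on single libraries.

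By role, secreted and surface signals had 6 of 9 genes lower with SB431542, Nt5e among them with a fall of 0.49 on the log2 scale, and each other role had 1 or 2. Elsewhere Bhlhe40, a transcriptional repressor, fell by 0.94, Plin2, a lipid droplet protein, by 0.72, Aldoc by 0.70, Cited2 by 0.59, P4ha2 by 0.44, Slc2a1 by 0.34, Plod1 by 0.32 and Bhlhe41 by 0.26. Tfrc rose by 0.69, Hk2 by 0.64, Adora2b by 0.57, Siah2 by 0.48, Ndrg1 by 0.35, Sap30 by 0.34, Ak4 by 0.31 and Pgam1 by 0.25. Epas1 was lower at −0.32, and Arnt, Vhl and Hif1an did not pass the test, at −0.19, 0.01 and −0.05. Of the 68 genes tested in both experiments, 11 were lower in both and 5 higher in both. Another 2 were lower with SB431542 and higher with T-5224, and 2 were higher with SB431542 and lower with T-5224. The share over all genes was not computed, so no agreement between the inhibitors is read from these counts.

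Relatives of the members were tested as well. Ndufa4, the abundant relative of Ndufa4l2, was at 629 ± 27.8 RPKM in DMSO and 403 ± 8.65 RPKM with T-5224 (SD, n = 2), at −0.64 ± 0.05 on the log2 scale (SE; limma adjusted p = 4.97e-07), and at 491 ± 53.5 and 513 ± 20.8 RPKM (SD, n = 3) with SB431542. Pdk2 fell by 1.83 with T-5224 and by 0.67 with SB431542. Vegfd fell by 1.71 with T-5224, where it passed the minimum only through DMSO, and by 0.45 with SB431542. Vegfb was at −0.08 with T-5224 and rose by 0.37 with SB431542. Ddit4l, the relative of Ddit4, rose by 0.79 with SB431542, where it passed only through the treated libraries, and was under the minimum in the T-5224 table. Of the receptors, Nrp2 and Nrp1, coreceptors for VEGF, fell by 0.92 and 0.68 with T-5224. With SB431542, Nrp1 rose by 0.37 and Nrp2 fell by 0.26. Calcrl, the receptor of adrenomedullin, was at 0 in DMSO of the T-5224 table and was not listed in the SB431542 table, and its partner Ramp2 had group means of 0.073 to 0.261 RPKM.

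The genes with the pattern most like that of Ndufa4l2 over the 10 libraries, by Euclidean distance of log2(RPKM + 0.5) centred on the DMSO mean of each table, were Gas1, Prelp and Sostdc1, of 10462 genes searched. Their distances were 1.38, 1.43 and 1.47. Sostdc1, a secreted BMP and Wnt modulator, was at 36.1 and 37.7 RPKM in DMSO and 0.352 and 0.287 RPKM with T-5224, and at 7.85 to 9.81 RPKM in all libraries of the SB431542 table. Gas1, a Hedgehog coreceptor, was at 174 and 191 RPKM in DMSO and 6.29 and 5.47 RPKM with T-5224. In all 3 genes the DMSO libraries lay close together, in contrast to those of Ndufa4l2.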

How the data were processed

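RNA-seq of 10 ASZ001 libraries was read from 2 tables of deposited RPKM, which the authors made from TruSeq stranded libraries (TopHat alignment to mm9, then gene counts by analyzeRepeats.pl of HOMER). Whether counting used strand is not given in the sources used here. Date-like gene names were left out, 22 and 23 rows, and 0 columns of values were unused. The members and lists were chosen with earlier results of these data known.

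A gene entered the test at a mean of 1 RPKM or more in its table, which left 10842 and 10809 genes. Inhibitor and DMSO libraries of the same table were fitted by limma (3.58.1, R 4.3.3) after a log2(RPKM + 0.5) transform, with moderated variances that follow the mean, and p-values were adjusted by Benjamini-Hochberg over all of those genes. The fold change is on that scale, which understates low genes. The analysis was tested on simulated data. Replicates are described as biological samples. The p-values set a difference against the spread between them, moderated by the spread shared across genes. Depth was estimated from RPKM of genes under 250 bases with under 6 reads, at the depth between 20 and 60 M reads at which most values were whole numbers within 0.05 reads (47.1% to 62.9% of values). Positions are from GENCODE for NCBIM37, which is mm9, and promoters from RefSeq.

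Named were all members, up to 4 genes of each role and experiment with the largest fold change past adjusted p under 0.05, and the paralogue, core regulators and receptors. Genes of the marker and stress lists are given as ranges, with examples chosen after their values were seen. For 1 gene that the rule names, the result is not reported here.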

Additional observations from a re-analysis of the deposited data

How the results depend on the processing

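Pseudocounts of 0.1 and 1, quantile normalization, median centring, no filter, a minimum of 5 RPKM, a fit without the mean-variance trend, and leaving out each library were tried. The members' fold changes kept their sign under all of them wherever they passed the adjusted p. With a 1.5-fold limit, the other HIF pathway genes called with SB431542 were 6 down and 2 up, and with T-5224 27 down and 14 up. The members' median with T-5224 was −1.86 with no filter, which adds Adm, and −1.11 with a minimum of 5 RPKM, which removes Ankrd37, and it ranged from −1.89 to −1.58 with 1 library left out. The median with SB431542 ranged from 0.033 to 0.103 with 1 library left out, the number of other HIF genes lower with SB431542 from 10 to 20, and the number higher from 3 to 17. For SB431542, fitting the replicate number as a block gave 2 other HIF genes called down, 0 up, 10 lower and 6 higher with no limit on the fold, against 2, 0, 15 and 8 without the block. Same-numbered libraries correlated at −0.148, 0.151 and −0.0949, so the numbers are not shown to pair them. No paired analysis was possible for T-5224 because the sample labels number its DMSO libraries 4 and 5 and its T-5224 libraries 1 and 2, while the table's columns number both 1 and 2, and no source ties the column numbers to shared cultures. With 2 libraries a group in that table, precision rests on the spread shared across genes.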
